A study of Mus musculus with 6 samples.

Results

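The genes described here are 10 genes of fibroblast growth factor (FGF) signalling in mouse embryonic stem (ES) cells. They are the ligand gene Fgf4, the receptor genes Fgfr1 and Fgfr2, and 7 genes that respond to the kinase ERK and feed back on the pathway, namely Spry2, Spry4, Dusp6, Etv1, Etv4, Etv5 and Egr1. Every probe set whose platform annotation gives a single gene symbol on this list was taken, which found 12 probe sets for all 10 genes, out of 19938 genes with a single symbol. Etv1 and Etv5 have 2 probe sets each, and the other genes have 1. All 12 probe sets passed the filter on low values, under which at least 3 of the 6 arrays lie above a log2 value of 3.78. RNA was profiled on Affymetrix arrays of the Mouse Gene ST type, which group many short probes into probe sets. Undifferentiated cells of Cl34, a clone with the genotype Hira-/- (Hira-null), gave 3 arrays, and cells of its parental line w9.5 (WT) gave 3 arrays. Both lines grew in medium with serum and ESGRO, a supplement of the cytokine LIF. HIRA is a chaperone that places the histone variant H3.3 on DNA outside replication. Only 1 Hira-null clone was profiled, so the loss of Hira and other differences between the clone and its parent cannot be told apart. Cells were taken at several stages of confluence, and no label ties a stage to an array.

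FGF4 is secreted by ES cells and acts back on them through FGF receptors, chiefly FGFR1 and FGFR2, which need heparan sulfate as a partner. The receptors signal through the adaptors FRS2 and GRB2 to RAS, RAF, MEK and ERK, and this signal primes ES cells to leave the naive state. ERK activity induces its own brakes, among them the Sprouty proteins and the phosphatase DUSP6, together with the transcription factors EGR1 and the PEA3 family (ETV1, ETV4 and ETV5). Transcript levels of these targets are therefore widely read as a sign of pathway activity. Kinase activity itself was not measured here.

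The labelled cell type was checked against marker lists. All 10 ES cell markers passed the filter, and Pou5f1, which encodes the core factor OCT4, read 11.56, 11.58 and 11.35 in Hira-null arrays and 10.91, 11.33 and 11.45 in WT arrays on the log2 scale. Of the markers of other cell types or states, 10 of 10 for primitive endoderm and 7 of 7 for the formative epiblast, described below, passed as well. So did 7 of 8 for trophectoderm and 7 of 10 for fibroblasts, and Elf5, Postn, Lum and Dcn did not. Over all genes 15199 of 19938 passed, so passing the filter does not tell these cell types apart. Among the fibroblast markers that passed, the fibronectin gene Fn1 read 10.28, 10.22 and 10.93 in Hira-null arrays. In WT arrays Fn1 read 10.73, 10.15 and 10.29. The Hira probe set read 7.40, 7.05 and 6.81 in Hira-null arrays and 7.49, 7.86 and 7.83 in WT arrays. The lines do not overlap, and the difference of -0.64 on the log2 scale did not pass the test (limma, adjusted p = 0.352). The deleted part of Hira is not named in the labels, so how far this probe set checks the genotype is not known. Over all probe sets, the first principal component held 41.7% of the variance and set Hira-null replicate 3 apart, at 65.6 against -32.0 to 1.95 for the other arrays. The second held 26.8%, with Hira-null arrays from 2.19 to 42.7 and WT arrays from -40.7 to -5.12, and its ends were Hira-null replicate 1 and WT replicate 1. All values below are deposited log2 values, differences of them (Hira-null minus WT) or fits to them, and the number of arrays limits their precision. In RNA from whole cultures, fewer cells of a type and less RNA per cell cannot be told apart.

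Promoter sequences are shown for 3 feedback genes whose values varied together over the arrays and for Fgf4, whose values did not. RefSeq promoter windows on the build GRCm38.p6 were matched for 6 of the 10 genes, with 8 windows in all, and the 250 bases before the annotated start were searched. Capitals mark the core bound by ETS factors, the class that includes ETV1, ETV4 and ETV5 (GGAA, or TTCC where it lies on the opposite strand). Each line is written 5′ to 3′ on the strand of the gene.
Dusp6, chr10:99262981-99263230, plus strand: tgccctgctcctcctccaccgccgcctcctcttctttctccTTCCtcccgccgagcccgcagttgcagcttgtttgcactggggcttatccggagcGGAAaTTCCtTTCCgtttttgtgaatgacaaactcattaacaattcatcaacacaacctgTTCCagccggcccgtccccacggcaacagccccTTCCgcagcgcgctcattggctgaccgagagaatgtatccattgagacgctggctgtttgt
Spry2, chr14:105896820-105897069, minus strand: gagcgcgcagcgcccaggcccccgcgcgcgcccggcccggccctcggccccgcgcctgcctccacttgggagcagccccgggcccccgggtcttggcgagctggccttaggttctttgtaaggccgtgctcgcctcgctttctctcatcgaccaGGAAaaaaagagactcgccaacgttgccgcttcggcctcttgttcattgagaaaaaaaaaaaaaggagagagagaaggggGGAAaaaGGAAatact
Etv5, chr16:22439571-22439820, minus strand: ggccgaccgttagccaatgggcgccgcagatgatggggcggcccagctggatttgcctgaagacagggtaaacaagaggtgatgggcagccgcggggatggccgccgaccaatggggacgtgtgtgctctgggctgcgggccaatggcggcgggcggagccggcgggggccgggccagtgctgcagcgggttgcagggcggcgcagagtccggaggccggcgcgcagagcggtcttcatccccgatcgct
Fgf4, chr7:144861136-144861385, plus strand: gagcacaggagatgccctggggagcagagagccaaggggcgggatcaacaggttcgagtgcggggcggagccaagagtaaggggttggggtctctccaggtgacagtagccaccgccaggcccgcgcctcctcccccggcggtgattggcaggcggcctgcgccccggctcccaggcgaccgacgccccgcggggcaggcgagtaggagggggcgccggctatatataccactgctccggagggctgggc
The ETS core occurs 6 times in the Dusp6 window, 3 times in the Spry2 window and 0 times in the windows of Etv5 and Fgf4. Of 32851 RefSeq windows of this length, 93.4% hold the core at least once, 54.7% at least 3 times and 8.69% at least 6 times. A further Etv5 window, at an inner start, holds 4 cores. The longer sites CCGGAAG and CAGGAAG, which contain the core, and the sites TGACGTCA (CRE) and TGANTCA (AP-1) were searched on both strands too. Among the 8 windows they gave 1 match, a CAGGAAG in the Fgfr2 window, and CAGGAAG is found in 10.8% of all windows. These matches describe the letters of the windows and say nothing of binding in these cells.

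Fgf4, the ligand gene, differed little between the lines. Its probe set 10559367 read 8.75, 8.69 and 9.10 in Hira-null arrays and 9.10, 8.33 and 8.73 in WT arrays. The lines overlap, and the highest value, 9.10, is shared by Hira-null replicate 3 and WT replicate 1. The means were 8.85 ± 0.22 in Hira-null and 8.72 ± 0.39 in WT arrays (SD, n = 3 each), and the log2 fold change was 0.13, with a 95% interval of -0.40 to 0.65 (limma, adjusted p = 0.915). None of the 12 probe sets passed the test over all probe sets (0 of 12), and the same call was made for 0.00398% of all 25142 probe sets tested. At an unadjusted p under 0.05 the count was also 0 of 12, against 10.1% of all probe sets (4.06% higher and 6.06% lower in Hira-null arrays). The arrays of the lines overlapped for all 12, whereas 15.3% of all probe sets had no overlap (7.09% with Hira-null arrays higher and 8.17% with them lower).

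Of the receptor genes, Fgfr1, which encodes the main FGF receptor of ES cells and lies on chromosome 8, was the steadiest of the 10 genes. It read 8.37, 8.35 and 8.57 in Hira-null arrays and 8.46, 8.32 and 8.34 in WT arrays. Its highest and lowest arrays differed by 0.25 on the log2 scale, and 93.7% of all probe sets had a range at least as wide. The log2 fold change was 0.06, with a 95% interval of -0.24 to 0.35 (limma, adjusted p = 0.934). Probe sets of genes on chromosome 8 had a median log2 fold change of -0.27, and with each chromosome centred within each array the value for Fgfr1 was 0.30 (adjusted p = 0.559). Fgfr2, which encodes the receptor that marks primitive endoderm and trophoblast in the early embryo, had the smallest unadjusted p of the 12 probe sets, 0.0572 in the limma fit. It read 5.18, 4.72 and 5.04 in Hira-null arrays and 5.68, 5.91 and 5.04 in WT arrays. The lines overlap, as Hira-null replicate 1, at 5.18, lies above WT replicate 3, at 5.04, a value shared by Hira-null replicate 3. The means were 4.98 ± 0.24 in Hira-null and 5.54 ± 0.45 in WT arrays (SD, n = 3 each), a log2 fold change of -0.56 with a 95% interval of -1.15 to 0.02 (limma, adjusted p = 0.508).

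Markers of primitive endoderm, where Fgfr2 is known to be expressed, were read beside it. Of 10 measured markers, 9 had lower values and 1 had a higher value in Hira-null arrays, with a median log2 fold change of -0.30, against -0.01 over all 15199 genes. None passed the test with adjustment over all probe sets, and 3, all with lower values, had an unadjusted p under 0.05. Those 3 are Lama1 (-0.59), a laminin gene, Gata6 (-0.55), a transcription factor gene of that lineage, and Dab2 (-0.83), an endocytic adaptor gene. Over all 15199 genes, 956 with lower and 634 with higher values had an unadjusted p under 0.05 in limma. In all, 7714 of those genes had lower and 7379 had higher values. The mean log2 level over the 10 markers ran from 5.96 to 6.43 in Hira-null arrays and from 6.38 to 6.78 in WT arrays, which overlap. Gata6 read 6.06, 5.85 and 6.14 in Hira-null arrays and 6.91, 6.36 and 6.42 in WT arrays. With each marker's mean over the 6 arrays subtracted, the median was -0.37, -0.25 and 0.02 in Hira-null replicates 1, 2 and 3. In WT replicates 1, 2 and 3 it was 0.44, 0.04 and 0.02. Fgfr2 did not share this order, being highest in WT replicate 2 and, of the Hira-null arrays, in replicate 1. Of the markers, Col4a1 lies on chromosome 8 and Sparc on chromosome 11, where the medians over all probe sets were -0.27 and -0.24. The part of these cells in the Fgfr2 difference was not tested.

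**Figure D1:**
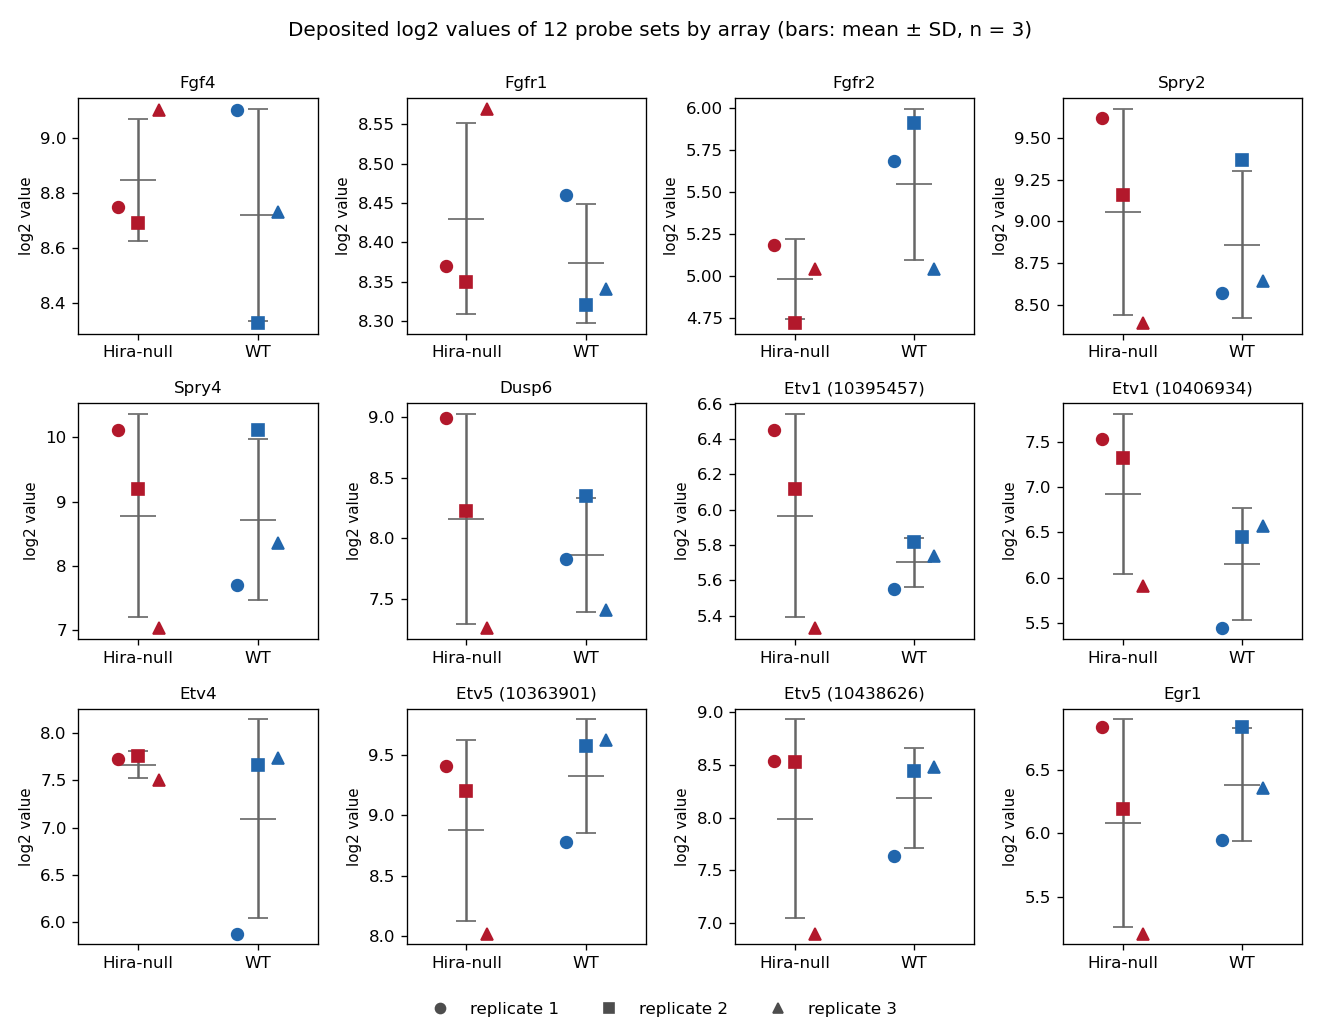
Deposited log2 values of the 12 probe sets in each array, with Hira-null arrays left and WT arrays right in each panel. Marker shapes give the replicate, bars give the mean ± SD (n = 3), and each panel has its own vertical scale, which does not start at 0. The lines overlap in all 12 panels.

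The Sprouty genes encode inhibitors that ERK induces and that act between receptor and RAF. Spry4 had the widest spread of the 10 genes. It read 10.11, 9.20 and 7.03 in Hira-null arrays and 7.70, 10.11 and 8.35 in WT arrays. Both lines hold a high array at 10.11, and the range over the 6 arrays was 3.08, which is 8.46-fold. Only 0.414% of all probe sets had a range at least as wide. The means were 8.78 ± 1.58 in Hira-null and 8.72 ± 1.25 in WT arrays (SD, n = 3 each). The log2 fold change was 0.06, with a 95% interval of -2.04 to 2.16 (limma, adjusted p = 0.994). Spry2 read 9.62, 9.16 and 8.39 in Hira-null arrays and 8.57, 9.37 and 8.64 in WT arrays. Its order of arrays from high to low was the one of Spry4, and its log2 fold change was 0.20 (95% interval -0.63 to 1.03, limma adjusted p = 0.916).

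Dusp6 encodes a cytoplasmic phosphatase that removes the activating phosphates from ERK. It read 8.99, 8.23 and 7.26 in Hira-null arrays and 7.83, 8.35 and 7.41 in WT arrays. Hira-null arrays hold both the highest and the lowest value, a range of 1.73, or 3.32-fold. The log2 fold change was 0.30, with a 95% interval of -0.76 to 1.35 (limma, adjusted p = 0.897). Without Hira-null replicate 1 it was -0.12, and without Hira-null replicate 3 it was 0.75 (adjusted p = 0.942 and 0.533 in limma).

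The PEA3 family factors did not share a direction between the lines. Etv1 had higher mean values in Hira-null arrays at both probe sets, by unequal amounts. Its probe set 10406934 read 7.54, 7.33 and 5.91 in Hira-null arrays and 5.44, 6.45 and 6.57 in WT arrays. Hira-null replicates 1 and 2 lie above every WT array, and Hira-null replicate 3 lies within the WT values. The means were 6.93 ± 0.89 in Hira-null and 6.15 ± 0.62 in WT arrays (SD, n = 3 each). The difference on the log2 scale was 0.77 with an SE of 0.49, which is 1.71-fold, and it did not pass (limma, adjusted p = 0.668). The other Etv1 probe set, 10395457, read 6.45, 6.12 and 5.33 in Hira-null arrays and 5.55, 5.82 and 5.74 in WT arrays, a log2 fold change of 0.26 (limma, adjusted p = 0.842). Again Hira-null replicates 1 and 2 were the highest arrays. Without Hira-null replicate 3 the log2 fold changes of the Etv1 probe sets were 1.28 and 0.58, and neither passed (limma, adjusted p = 0.349 and 0.358). With the probe sets averaged, Etv1 stood at 0.52.

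Etv4, on chromosome 11, read 7.73, 7.76 and 7.50 in Hira-null arrays and 5.88, 7.66 and 7.74 in WT arrays. WT replicate 1 stands 1.62 or more below every other array. The means were 7.66 ± 0.14 in Hira-null and 7.09 ± 1.05 in WT arrays (SD, n = 3 each), and the log2 fold change of 0.57 (limma, adjusted p = 0.77) was -0.037 without WT replicate 1. Probe sets of genes on chromosome 11 had a median log2 fold change of -0.24, and with chromosome centring the value for Etv4 was 0.79. Etv5 was lower on average in Hira-null arrays at both probe sets. Probe set 10363901 read 9.41, 9.20 and 8.02 in Hira-null arrays and 8.78, 9.57 and 9.62 in WT arrays, a log2 fold change of -0.45 (limma, adjusted p = 0.792). Probe set 10438626 read 8.54, 8.53 and 6.90 in Hira-null arrays and 7.64, 8.44 and 8.48 in WT arrays, a log2 fold change of -0.20 (limma, adjusted p = 0.94). The lowest array was Hira-null replicate 3 at both, and without it the values were -0.02 and 0.35.

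Probe set identifiers on this array run along the chromosomes, and this bears on which copy the extra probe sets read. Etv1 lies on chromosome 12, and the 10 nearest named identifiers around 10406934 belong to genes of chromosome 13. Etv5 lies on chromosome 16, and the 10 nearest around 10363901 belong to genes of chromosome 10. The other probe set of each gene sits among genes of its own chromosome. Probe sets 10406934 and 10363901 have the higher mean level, so they stand for Etv1 and Etv5 in the medians, ranks and gene counts below. Probe sequences were not used here, and signal of near-identical copies cannot be told apart from that of the gene.

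Egr1 encodes a zinc finger factor that ERK induces within minutes to hours, as an immediate early gene. It read 6.84, 6.19 and 5.21 in Hira-null arrays and 5.95, 6.84 and 6.36 in WT arrays. The top value, 6.84, is shared by the lines, and Hira-null replicate 3 is the lowest array. The log2 fold change was -0.30, with a 95% interval of -1.30 to 0.70 (limma, adjusted p = 0.888).

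**Figure D2:**
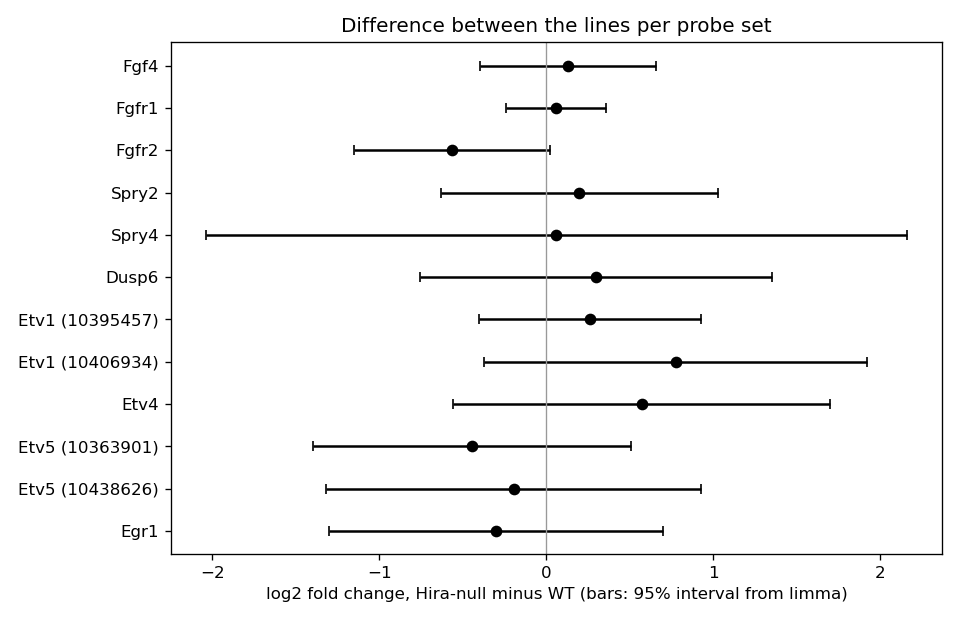
Log2 fold change (Hira-null minus WT) of each probe set on the horizontal axis, with the 95% interval from limma as bars. Every interval includes 0; the point estimates run from -0.56 for Fgfr2 to 0.77 for Etv1, and the interval of Spry4 is the widest, from -2.04 to 2.16.

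Over the 12 probe sets, 8 had higher and 4 had lower values in Hira-null arrays. Counting Etv1 and Etv5 once each, by the probe set of higher mean level, 7 of 10 genes were above and 3 below their WT level, with a median log2 fold change of 0.09, against a median of -0.01 over all genes, of which 7379 were above and 7714 below. The median over the 10 genes was -0.10 without Hira-null replicate 1 and 0.33 without Hira-null replicate 3. Those are the arrays at the ends of the feedback genes' range.

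What the feedback genes shared was a rank order of single arrays that cuts across the lines. This order was noticed in the values and is given as a description. Hira-null replicate 3 was the lowest Hira-null array for 9 of 9 feedback probe sets, as it was for 38.3% of all probe sets. WT replicate 1 was the lowest WT array for 8 of 9, the exception being Dusp6, against 36.0% of all probe sets. Both held together for 8 of 9, against 19.5% of all. Hira-null replicate 1 was the highest of the 6 arrays, alone or tied, for 7 of 9, and the share over all probe sets was not computed. The median over the 7 feedback genes of the value minus the gene's mean over the 6 arrays was 0.66, 0.22 and -0.75 in Hira-null replicates 1, 2 and 3, and -0.39, 0.41 and 0.03 in WT replicates 1, 2 and 3. Fgf4 and Fgfr1 ran the other way, being highest in Hira-null replicate 3 and WT replicate 1 within each line. That order held for 2 of the 10 genes, against 23.0% of all genes, a like share, and Fgfr1 had a range of only 0.25.

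**Figure D3:**
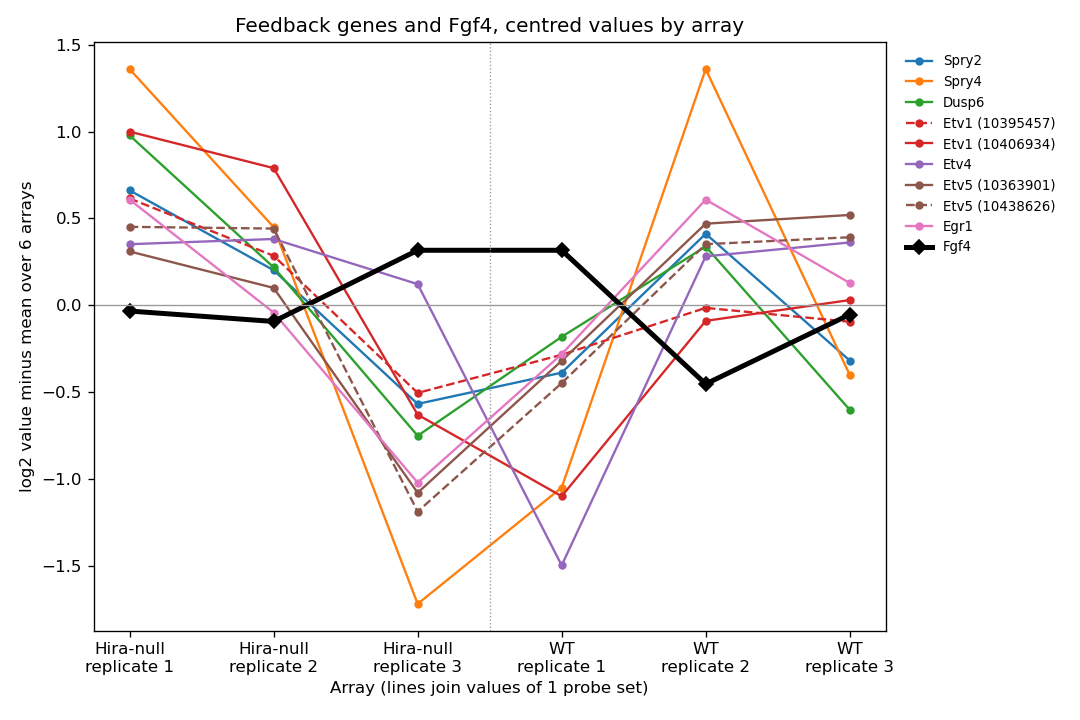
Log2 value minus the mean over the 6 arrays for the 9 probe sets of the feedback genes (thin lines, dashed for the probe set of lower mean for Etv1 and for Etv5) and for Fgf4 (thick black line), with Hira-null arrays left of the dotted line and WT arrays right of it. Arrays have no order within a line. All 9 probe sets are lowest of the Hira-null arrays in Hira-null replicate 3, where Etv4, at 0.12, still lies above its mean. Except for Dusp6, the feedback genes are lowest of the WT arrays in WT replicate 1, where Fgf4 is at its highest.

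The range over arrays of the feedback probe sets was 1.12 to 3.08 on the log2 scale, and all 9 exceeded 1. A range over 1 was found in 20.8% of all probe sets, whose median range was 0.61. The standard error of the log2 fold change was accordingly wide, at 0.89 for Spry4 and 0.49 for Etv1, against a median of 0.17 over all probe sets. For each of the 9 probe sets the range within at least 1 line was larger than the difference between the means of the lines. This follows largely from the overlap of the lines, and its share over all probe sets was not computed. Within Hira-null arrays Spry4 spanned 3.08 and within WT arrays 2.41, while its means differed by 0.06.

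**Figure D4:**
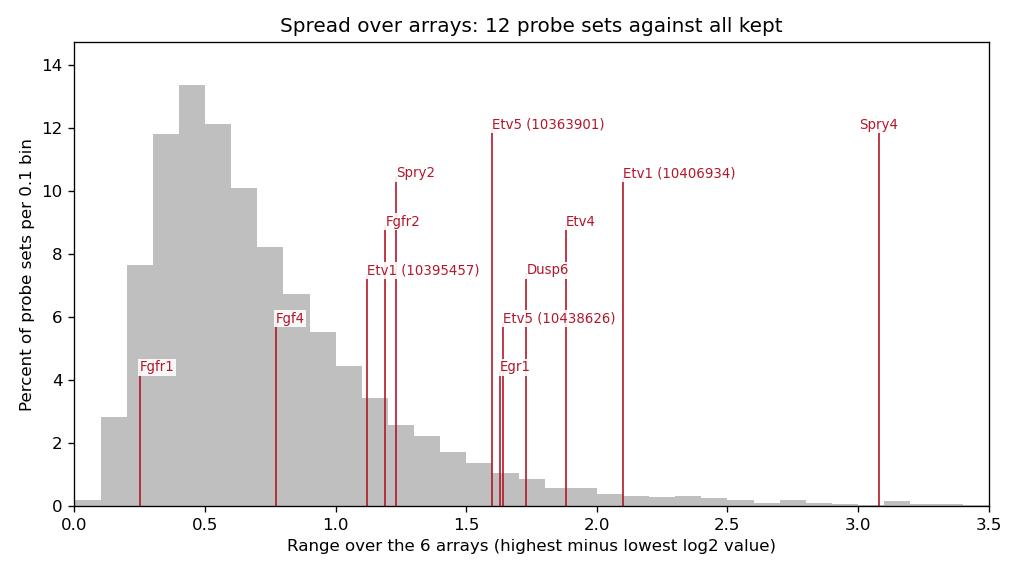
Distribution of the range over the 6 arrays (highest minus lowest log2 value) for all 25142 probe sets kept, as grey bars in percent per bin, with the 12 probe sets marked by vertical lines whose heights carry no meaning. Fgfr1 lies at 0.25 and Spry4 at 3.08, and 0.0915% of probe sets lie past the end of the axis at 3.5.

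Genes with the array pattern of Spry4 were sought among 13948 other protein-coding genes by the mean absolute difference of centred log2 values over the 6 arrays. The closest were Trh (0.34), the thyrotropin-releasing hormone gene, Myc (0.35), the proto-oncogene of growth control, and Nab2 (0.42), which encodes a co-repressor of EGR factors. The median over the genes searched was 1.06. Trh read 11.11, 10.78 and 8.12 in Hira-null arrays and 9.03, 11.02 and 10.45 in WT arrays. Myc read 8.39, 7.81 and 4.68 in Hira-null arrays and 5.42, 8.35 and 7.11 in WT arrays, with the same mean of 6.96 in both lines. As for Spry4, both genes were lowest in Hira-null replicate 3 and next lowest in WT replicate 1. By the same measure Dusp6 came 41st, Etv1 49th, Spry2 59th, Egr1 86th, Etv5 295th and Etv4 967th, whereas Fgf4 came 12539th. The genes closest to Fgf4 were Klc1 (0.03), a kinesin light chain gene, Neu3 (0.04), a sialidase gene, and Osgepl1 (0.04), of mitochondrial tRNA modification, with a median of 0.27 over the genes searched.

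Markers of other cell states were read in the same arrays. Genes of the formative epiblast, the state that ES cells enter as they leave naive pluripotency, were lowest within each line in Hira-null replicate 3 and WT replicate 1 for 7 of 7 markers, against 20.0% of all genes. Otx2, a homeobox factor of that state, read 8.24, 8.14 and 5.86 in Hira-null arrays and 6.21, 7.99 and 8.23 in WT arrays. Ranges over the 6 arrays ran from 0.14 for Pou3f1 to 2.38 for Otx2 among these markers, with 0.30 for Sox3 and 0.49 for Fgf5. Of all probe sets, 99.1%, 89.3% and 65.4% ranged at least as widely as Pou3f1, Sox3 and Fgf5. The order of these 3 rests on small differences, such as 6.28 against 6.29 for Sox3 in WT replicates 1 and 3. Over the 7 markers the median centred value was 0.25, 0.48 and -0.29 in Hira-null replicates 1, 2 and 3. In WT replicates 1, 2 and 3 it was -0.79, 0.07 and 0.29. The mean log2 level of the 7 markers ran from 6.13 to 7.004 in Hira-null arrays and from 5.94 to 6.82 in WT arrays. The marker Fgf5 is also in the list of ligands. The keratin gene Krt18, of simple epithelia, ran the other way, at 7.31, 7.19 and 10.20 in Hira-null arrays and 9.22, 7.63 and 7.48 in WT arrays. Otx2 and Krt18 were picked after their values were seen. Krt18 is on the trophectoderm list, where 4 of 7 measured markers were highest within each line in Hira-null replicate 3 and WT replicate 1. Eomes, 1 of the 7, was lowest there within each line. The 7 trophectoderm markers that were measured had median centred values of -0.13, -0.19 and 0.33 in Hira-null replicates 1, 2 and 3 and 0.33, -0.15 and -0.11 in WT replicates 1, 2 and 3. Their mean log2 level ran from 5.98 to 6.87 in Hira-null arrays and from 6.09 to 6.51 in WT arrays. The 7 measured markers of fibroblasts, which can serve as feeder cells, stood at -0.24, -0.19 and 0.13 in Hira-null and 0.30, -0.03 and -0.10 in WT arrays, with mean levels of 6.67 to 7.16 and 6.91 to 7.41. The 10 ES cell markers stood at 0.20, 0.11 and -0.12 in Hira-null and -0.12, -0.01 and -0.04 in WT arrays. Of these 10, 5 were also lowest within each line in Hira-null replicate 3 and WT replicate 1. The part of cell state, cell mixture or confluence in the array order was not tested.

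The rest of the pathway was described with 6 lists of 93 genes, of which 82 were measured. None passed the test (0 of 82 in limma), and 5 higher and 3 lower genes had an unadjusted p under 0.05. Over all 15199 genes these counts were 634 higher and 956 lower, a like share, so the genes named from the lists are described by their values alone. The smallest adjusted p was 0.233. The lines did not overlap for 11 of the 82 genes, against 2638 of all 15199 genes. Above and below the WT level were 38 and 42 genes, and the median was -0.01. Another 8 listed genes were not analysed here, and 3 did not pass the filter.

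Other FGF ligand genes gave 0 of 9 at an unadjusted p under 0.05 and a median log2 fold change of 0.08. The smallest p were those of Fgf18 (0.38), Fgf5 (0.20), a gene of the formative epiblast, and Fgf13 (0.15), an intracellular homologue. Among 13 receptors and coreceptors the median was -0.05, and 1 had an unadjusted p under 0.05. This was Gpc4, a heparan sulfate carrier at the cell surface, which read 7.92, 7.69 and 8.20 in Hira-null arrays and 7.28, 7.18 and 7.06 in WT arrays. Its lines do not overlap, and the log2 fold change of 0.76 did not pass the test (SE 0.16, limma adjusted p = 0.233). Fgfrl1, a receptor without a kinase domain, stood at -0.27. Fgfr4 stood at 0.73, reading 5.25, 5.29 and 7.01 in Hira-null replicates 1, 2 and 3, whereas WT arrays ran from 4.95 to 5.40.

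Adaptors that link receptors to RAS had a median of 0.05 over 11 genes, with 1 higher and 3 lower at an unadjusted p under 0.05. Crk (-0.47), Gab1 (-0.40) and Grb2 (-0.35) had lower values, and Shc1 stood at 0.41 (limma, adjusted p from 0.343 to 0.409). The lines do not overlap for these 4 of the 11 genes, which had the smallest p of the list, against 2638 of all 15199 genes. Crk and Grb2 lie on chromosome 11 and Gab1 on chromosome 8, where the medians over all probe sets were -0.24 and -0.27. In the kinase cascade the median over 9 genes was -0.08. The kinase gene Braf read 8.29, 8.14 and 8.37 in Hira-null arrays and 7.80, 7.97 and 7.95 in WT arrays, a log2 fold change of 0.36 (limma, adjusted p = 0.409). The MEK gene Map2k1 stood at -0.31 and the RAS-related gene Rras at -0.37.

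Of 15 further antagonists, 2 had an unadjusted p under 0.05, both with higher values, and the median was 0.02. Spred3, of the Sprouty-related family, read 5.59, 5.71 and 5.38 in Hira-null arrays and 5.03, 5.17 and 5.01 in WT arrays, a log2 fold change of 0.49 (limma, adjusted p = 0.324). Dusp9, an ERK phosphatase gene on chromosome X that is known to respond to BMP signals in ES cells, had the largest difference among the 82 genes. It read 8.65, 8.56 and 9.92 in Hira-null arrays and 8.45, 7.38 and 7.74 in WT arrays, a difference of 1.19 on the log2 scale with an SE of 0.42 (limma, adjusted p = 0.409). The lines do not overlap, and the lowest Hira-null array lies 0.11 above the highest WT array. The RAS inhibitor gene Rasa2 stood at -0.25. Among 25 other ERK-responsive genes and ETS factors the median was -0.01, with 0 at an unadjusted p under 0.05. The cyclin gene Ccnd1 stood at -0.73, the ETS factor gene Elk1 at -0.13 and the immediate early gene Ier2 at -0.50. Of these 25 genes, 8 were lowest within each line in Hira-null replicate 3 and WT replicate 1, and 5 were highest there, against 20.0% and 23.0% of all genes.

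**Figure D5:**
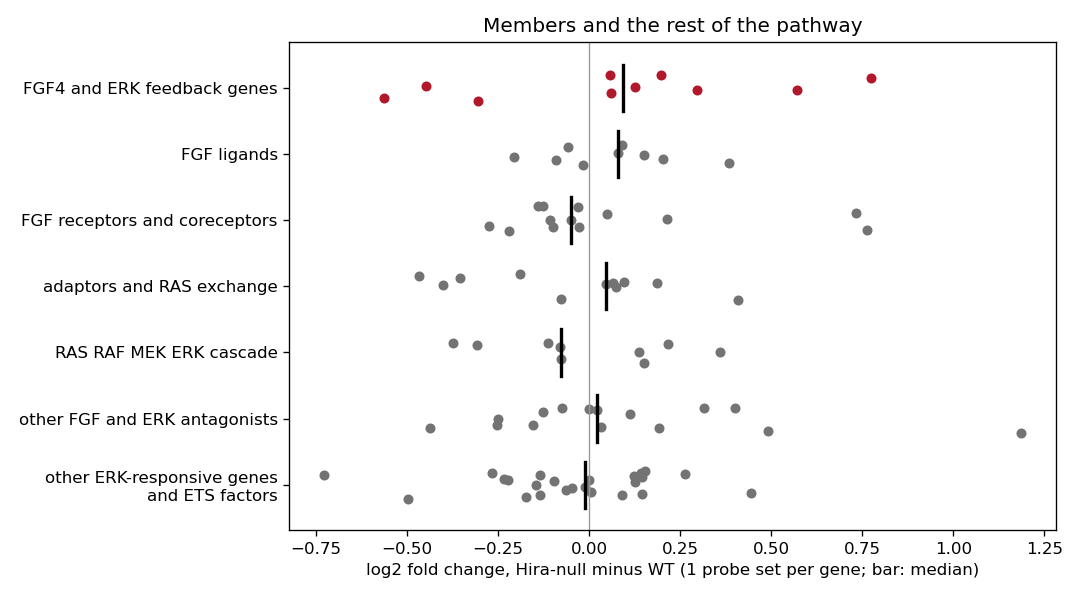
Log2 fold change (Hira-null minus WT) of single genes on the horizontal axis, for the 10 genes described here (top row, red) and 6 lists of other pathway genes (grey), with a black bar at each median. Points are spread vertically only to keep them apart. Medians lie between -0.08 and 0.09, and the point farthest right is Dusp9 at 1.19.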

How the data were processed

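The authors deposited log2 expression values for 35557 probe sets on 6 arrays, rounded to 2 decimals. GCRMA, which corrects background and normalizes between arrays, is named per the submitters' processing notes, without a version. The values themselves show a log2 scale (1.14 to 14.03, array medians 4.93 to 5.02). Scanner signals were not analysed here, and genome build and annotation were not given in the sources used here. Symbols from the platform table were updated through a GRCm38.p6 gene table (21698 of 21789 single-symbol probe sets matched). Probe sets with at least 3 of 6 arrays above 3.78, the 30th percentile, were kept (25142). Hira-null minus WT was fitted with limma 3.58.1 in R 4.3.3 (lmFit, eBayes, two-sided, no covariates), with Benjamini-Hochberg adjustment over all probe sets kept and a threshold of 0.05. In lists, genes with several probe sets count once, by the one of highest mean level. The labels call the arrays biological replicates and name no separate source, so a p-value reflects array-to-array spread, which may be technical. The members and lists were chosen with earlier results of these data known. Named are all members, Hira, the 3 genes of each list with the smallest unadjusted p, and the 3 genes nearest in array pattern to Fgf4 and to the member with the widest range; others are said to be chosen after their values were seen, or stand as markers or as members of a count. The fit was tested on simulated data with 200 changed probe sets. It recovered 32.5% of changes of 1 on the log2 scale and 87% of changes of 2, with 3 and 14 wrong calls. The simulated spread was drawn from all probe sets, whose median standard error was 0.17, against 0.28 to 0.89 for the feedback probe sets. Alternatives were other filters, normalizations and variance models, array weights, a replicate block and arrays left out.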

Additional observations from a re-analysis of the deposited data

How the results depend on the processing

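No probe set of the 10 genes was called under any of the 16 alternatives (0 of 12 each time). Of 192 values over 12 probe sets, 178 kept the sign reported, 13 reversed and 1 was 0, and 4 probe sets (both of Etv1, Etv5 10363901 and Fgfr2) never reversed. All reversals but 2 came from leaving out 1 array. Over the 6 fits with 1 array left out, Spry4 ran from -0.605 to 0.935, Dusp6 from -0.12 to 0.75, Spry2 from -0.085 to 0.53 and Etv4 from -0.037 to 0.89. Etv5 10438626 ran from -0.47 to 0.35, Egr1 from -0.68 to 0.13, Fgf4 from -0.068 to 0.32 and Fgfr1 from -0.013 to 0.1. Spry4 was negative without Hira-null replicate 1, Hira-null replicate 2 (-0.15), WT replicate 1 (-0.45) or WT replicate 3 (-0.125). Etv5 10438626 also reversed with arrayWeights (0.0012) and without the pair WT replicate 1 and Hira-null replicate 3 (0.075). Over all probe sets 1 was called; the count was 0 to 41 with 1 array left out, 41 being without Hira-null replicate 2, and 0 without that pair. It was 2 with the filter at the 50th percentile, with median centring and with chromosome centring, 5 with arrayWeights and 0 with the replicate block. Same-numbered arrays of the lines did not deviate together (correlations of -0.34, 0.17 and -0.10 for numbers 1, 2 and 3 over probe sets). The highest correlation, 0.44, was that of Hira-null replicate 3 with WT replicate 1. The numbers thus gave no sign of a pairing, which 3 arrays per line cannot exclude. The smallest adjusted p of any of the 12 probe sets under these alternatives was 0.349. The deposited values carry no measure of signal over background, so how near background a dim probe set such as that of Fgfr2 lies was not tested.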

Other observations

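Some ligand, receptor and phosphatase genes of the pathway stood apart in Hira-null replicate 3 alone. They were picked after their values were seen and carry no test. Fgf15, a ligand gene neighbouring Fgf4 on chromosome 7, read 7.57, 7.49 and 5.87 in Hira-null arrays and 6.62, 6.99 and 7.37 in WT arrays. Fgf17, of the FGF8 subfamily, read 7.29, 7.37 and 5.53 in Hira-null arrays and 6.63, 7.04 and 7.14 in WT arrays. Both were lowest in Hira-null replicate 3 and next lowest in WT replicate 1, like the feedback genes. The phosphatase gene Dusp4 ran the other way, at 6.44, 5.78 and 8.17 in Hira-null arrays and 6.78, 6.53 and 6.13 in WT arrays. Il17rd, which encodes the FGF antagonist Sef, read 7.32, 7.23 and 6.38 in Hira-null arrays and 6.91, 6.82 and 6.86 in WT arrays.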
